A study of Arabidopsis thaliana with 15 samples.

Results

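The cell cycle genes described here are 47 Arabidopsis thaliana loci, fixed as a list of locus identifiers: A-, B- and D-type cyclins, cyclin-dependent kinases (CDKs) of the A and B classes, CDK inhibitors of the KRP and SIM/SMR families, E2F factors with DEL1 and RBR1, the kinase WEE1, the CCS52A activators, the aurora kinase AUR1 and the syntaxin KNOLLE. All 47 occur among the 33201 genes of the authors' RNA comparison, and 46 of them belong to the 19868 genes that the authors tested. RNA came from whole seedlings aged 14 days, grown on plates with 16 h of light and 8 h of dark. Wild type (WT) plants of the ecotype Col-0 gave 3 libraries, and 3 more came from syd-5 in Col-0, which carries a mutation in the gene SPLAYED (SYD) for a SWI/SNF chromatin remodelling ATPase. Of the RNA samples used here, no other mutant line is a source. The other 9 libraries, from chromatin immunoprecipitation, were not analysed here.

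Division in plant cells is driven by CDKs, which need a cyclin partner to act. D-type cyclins with CDKA promote entry into DNA synthesis by inactivating RBR1, the retinoblastoma protein that holds back E2F factors, while A- and B-type cyclins with CDKB kinases act towards mitosis. KRP and SIM/SMR proteins bind and inhibit cyclin-CDK complexes. In leaves and trichomes many cells leave division and go on copying their DNA, a process called endoreduplication, which the SIM/SMR inhibitors and the CCS52A activators of the anaphase-promoting complex favour.

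The table gives 1 expression value per gene and genotype, read as FPKM (a level scaled to transcript length and library size), and a q-value for the comparison. It holds no value per library, so neither the replicate spread nor the depth behind a level is known. Genes with a q of 0.05 or less in the authors' deposited table are called, and are said to have risen or fallen. Fold changes divide the syd-5 value by the WT value, with no pseudocount, and log2 values have the same direction. Where values of a gene stand side by side, WT comes first. SYD itself fell to 2.53 FPKM from 13.1 FPKM (q = 0.000351 from the authors' deposited table), and its listed span overlaps another entry. Since a seedling mixes dividing and differentiated cells, fewer cells of a type and less RNA per cell cannot be told apart in any value below.

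Among the cell cycle genes, several inhibitors fell and the division machinery was mostly not called. The inhibitor genes SMR1, KRP2, KRP6 and SIM fell in syd-5, and the G1 cyclin gene CYCD3;1 rose. None of the A- or B-type cyclins, CDKs, E2F factors or mitotic genes among the members was called. In all, 5 of 46 tested members were called (10.9%), against 32.1% of all tested genes. Members that fell numbered 4, where 18.0% of all tested genes fell, and 1 rose, where 14.1% of all tested genes rose. At an unadjusted p under 0.05 in the authors' deposited table the members numbered 11 of 46 (23.9%), against 40.3% of all tested genes. The members' median log2 fold change was 0.03, and that of all tested genes was -0.02. Their median absolute log2 fold change was 0.21, against 0.30 over all tested genes.

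**Figure D1:**
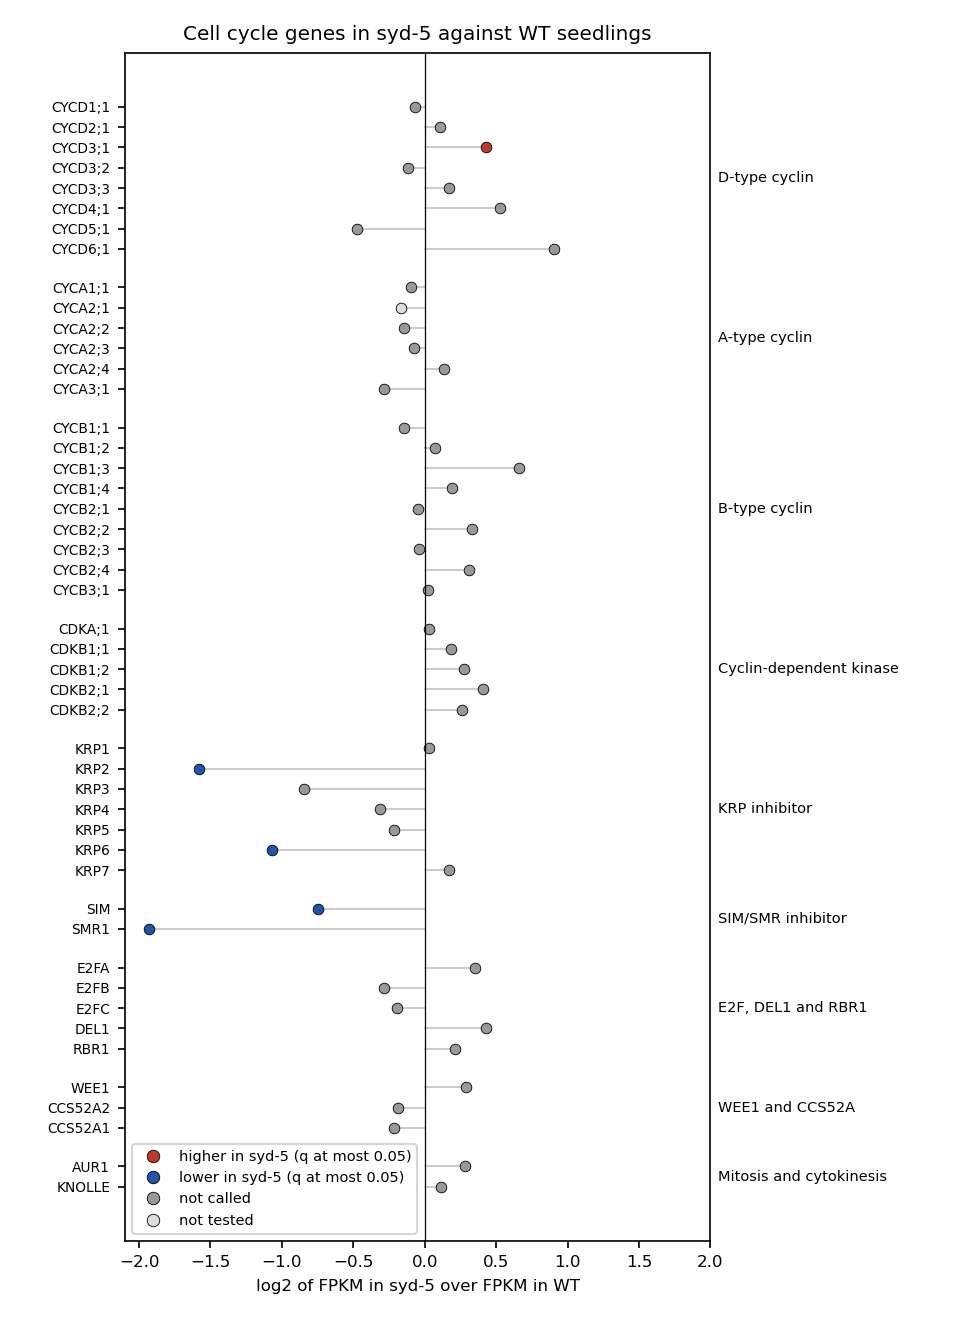
Log2 ratio of the syd-5 to the WT level in FPKM (x axis) for each of the 47 cell cycle genes, grouped by role, with colour giving the call at a q of at most 0.05. The points farthest to the left are the inhibitor genes SMR1 (-1.93), KRP2 (-1.58) and KRP6 (-1.07), all lower in syd-5.

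SMR1 had the highest level of the inhibitor genes in WT and the largest fall of any member. SMR1 (AT3G10525, also named LGO, on TAIR10 chromosome 3, 3281362 to 3282032) encodes an inhibitor known for the giant, endoreduplicated cells of the sepal epidermis. Its level was 49.3 FPKM (WT) and 12.9 FPKM (syd-5), a 3.81-fold fall (log2 -1.93, q = 0.000351 from the authors' deposited table). SIM (AT5G04470, chromosome 5, 1266625 to 1267416) encodes the founding member of the same family, which keeps developing trichomes from dividing. SIM fell 1.68-fold, to 14.7 FPKM from 24.7 FPKM (log2 -0.75, q = 0.000662 from the authors' deposited table). SMR1 thus stood above SIM in WT and below it in syd-5.

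KRP2 and KRP6 fell as well, while the other KRP genes were not called. KRP2 (AT3G50630, chromosome 3, 18800380 to 18801587), whose product inhibits CDKA and is linked to the start of lateral roots, fell 2.99-fold to 4.80 FPKM from 14.3 FPKM (log2 -1.58, q = 0.000351 from the authors' deposited table). KRP6 (AT3G19150, chromosome 3, 6616352 to 6617696), best known as a target of proteolysis during the divisions of the male gametophyte, fell 2.09-fold to 13.5 FPKM from 28.2 FPKM (log2 -1.07, q = 0.000351 from the authors' deposited table). That q is the table's smallest and is shared by 2831 genes, so it does not rank SMR1, KRP2 and KRP6. On the scale of all tested genes ordered by log2 fold change from the lowest, SMR1 lay at percentile 3.45, KRP2 at 4.99, KRP6 at 8.997 and SIM at 13.4.

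KRP1 was at 28.9 FPKM in WT, close to KRP6, and at 29.5 FPKM in syd-5 (q = 0.912 from the authors' deposited table). KRP1 and KRP6 were thus at like levels in WT, and KRP6 was well below KRP1 in the mutant. KRP4, which has a part in size control of shoot meristem cells, was at 20.25 and 16.3 FPKM in WT and syd-5 (q = 0.105 from the authors' deposited table). KRP3, the lowest of the family, was at 2.08 and 1.16 FPKM (q = 0.0957 from the authors' deposited table). KRP4 and KRP3 had an unadjusted p under 0.05. KRP5 was at 3.94 and 3.40 FPKM, and KRP7 at 4.86 and 5.47 FPKM. The 7 KRP genes comprised 2 that fell, 0 that rose and 5 not called, with a median log2 fold change of -0.31. Their called share, 28.6%, was near the 32.1% of all tested genes, of which 18.0% fell.

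**Figure D2:**
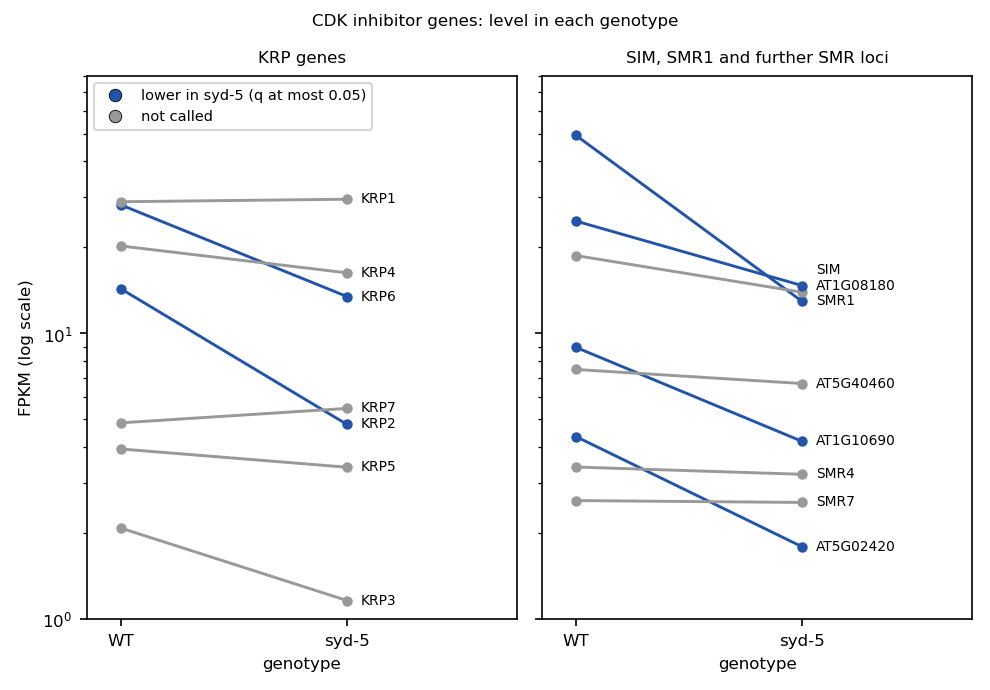
FPKM (log axis) in WT and syd-5 for the KRP genes (left) and for SIM, SMR1 and the further SMR loci (right), 1 line per gene, blue where lower in syd-5 at a q of at most 0.05. SMR1 and SIM change order between the genotypes, and KRP6 leaves the level of KRP1.

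Added over the 9 inhibitor genes of the list, FPKM came to 176.7 in WT and 101.7 in syd-5, a ratio of 0.576. Without SMR1 the sums were 127.3 and 88.8 FPKM, a ratio of 0.697. The summed level of the 23 cyclin genes was 112.4 FPKM (WT) and 119.1 FPKM (syd-5). These sums have no error of their own and were not tested. Of the 9 inhibitor genes 4 fell (44.4%), where 18.0% of all tested genes fell. Of the 37 other tested members none fell and 1 rose (2.70% called), where 32.1% of all tested genes were called. Whether these shares differ was not tested.

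D-type cyclins, which link growth signals to the G1 phase, included the only member that rose. CYCD3;1 (AT4G34160, chromosome 4, 16357639 to 16359555), a cytokinin-responsive cyclin that prolongs division in leaves, rose 1.34-fold to 19.96 FPKM from 14.8 FPKM (log2 0.43, q = 0.0184 from the authors' deposited table). Its family partners CYCD3;2 (24.4 and 22.5 FPKM) and CYCD3;3 (10.6 and 12.0 FPKM) were not called. This rise is small: it did not reach 1.5-fold, and it was lost at a q of at most 0.01.

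CYCD6;1, which acts in the formative divisions of the root ground tissue, was at 1.10 FPKM (WT) and 2.06 FPKM (syd-5) and came closest to the threshold of the members that missed it (log2 0.90, with q = 0.0613 from the authors' deposited table). SHR, a regulator of CYCD6;1, rose to 8.79 FPKM from 6.49 FPKM (q = 0.0292 from the authors' deposited table), and SCR, its partner, was at 11.2 and 9.59 FPKM and was not called. CYCD5;1, linked to natural variation in endoreduplication, was at 4.96 and 3.57 FPKM (q = 0.0857 from the authors' deposited table). CYCD4;1 was at 1.52 and 2.19 FPKM, CYCD1;1 at 11.3 and 10.8 FPKM, and CYCD2;1 at 8.19 and 8.81 FPKM. Of 8 D-type cyclin genes 1 rose, none fell and 7 were not called. The share that rose, 12.5%, was near the 14.1% of all tested genes, and the called share was below their 32.1%.

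A-type cyclins act in DNA synthesis and G2, and the 6 among the members were at low levels and close together in both genotypes. The highest of these 6 was CYCA2;3, a partner of CDKB1;1 that restrains endoreduplication, at 5.16 FPKM (WT) and 4.90 FPKM (syd-5). CYCA1;1 was at 2.97 and 2.78 FPKM, CYCA2;4 at 2.52 and 2.77 FPKM, CYCA2;2 at 1.48 and 1.33 FPKM, and CYCA3;1 at 1.36 and 1.11 FPKM. CYCA2;1 was the member not tested, at 0.370 and 0.330 FPKM. None of these 5 tested A-type genes was called in the authors' comparison, where 32.1% of all tested genes were called. None had an unadjusted p under 0.05, against 40.3% of all tested genes. Outside the members, the A-type genes CYCA3;2 and CYCA1;2 rose (q = 0.0303 and 0.0432 from the authors' deposited table). CYCA3;4, at 8.31 FPKM in both genotypes, was not called.

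B-type cyclins, whose transcripts peak at G2 and mitosis, serve as a readout of dividing cells. CYCB1;1, the common mitotic reporter gene, which also responds to DNA damage, was at 1.97 FPKM (WT) and 1.78 FPKM (syd-5) (q = 0.722 from the authors' deposited table). CYCB1;2 was the highest, at 6.50 and 6.84 FPKM. CYCB1;3 was at 1.16 and 1.84 FPKM and missed the threshold (log2 0.66, q = 0.0656 from the authors' deposited table). The others, from CYCB2;1 (0.601 and 0.581 FPKM) to CYCB2;4 (3.31 and 4.10 FPKM), also include CYCB3;1 (0.859 and 0.874 FPKM), CYCB2;2 (1.92 and 2.42 FPKM), CYCB1;4 (2.37 and 2.71 FPKM) and CYCB2;3 (2.83 and 2.76 FPKM). Of 9 B-type genes none was called in the authors' comparison, where 32.1% of all tested genes were called. An unadjusted p under 0.05 was found for 1, CYCB1;3 (11.1%), against 40.3% of all tested genes.

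CDKA;1, the kinase active throughout the cycle, had the highest mean level of all members and was nearly equal in the genotypes, at 43.5 FPKM (WT) and 44.3 FPKM (syd-5) (q = 0.913 from the authors' deposited table). The B-class kinases, which are made from S phase to mitosis, were lower. CDKB2;1, which acts in the shoot meristem, was at 9.81 and 12.99 FPKM (log2 0.41, q = 0.0842 from the authors' deposited table), and its sister CDKB2;2 was at 5.67 and 6.81 FPKM. CDKB1;1 was at 3.16 and 3.58 FPKM, and its sister CDKB1;2 at 1.79 and 2.16 FPKM. All 5 kinase values were higher in syd-5, by log2 0.03 to 0.41, where 48.0% of all tested genes had a log2 fold change above 0. None of the 5 was called, against 32.1% of all tested genes, and 1, CDKB2;1, had an unadjusted p under 0.05. Setting both genotypes to equal sums of FPKM lowers every log2 fold change by 0.13. With equal sums 4 of the 5 stayed above 0, against 35.6% of all tested genes. The listed spans of CDKB2;1, CDKB1;2 and E2FA overlap a neighbouring entry each, so that their values are less certain.

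RBR1 was at 13.8 FPKM (WT) and 15.97 FPKM (syd-5), and neither it nor the E2F and DEL1 genes of the list were called. E2FA, an activator of S-phase genes that works with DP proteins, was at 3.19 and 4.06 FPKM. E2FB, another activator, was at 4.84 and 3.97 FPKM, and E2FC, which acts mainly as a repressor, at 8.76 and 7.64 FPKM. DEL1, an atypical E2F that delays the onset of endoreduplication, was at 0.984 and 1.32 FPKM. These 5 genes had q from 0.184 to 0.412 in the authors' deposited table, where 32.1% of all tested genes were called. None had an unadjusted p under 0.05, against 40.3% of all tested genes.

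The members for leaving or finishing the mitotic cycle were not called either, where 32.1% of all tested genes were called. CCS52A1 and CCS52A2, which activate the anaphase-promoting complex at the switch to endoreduplication, were at 6.52 and 5.62 FPKM and at 4.19 and 3.68 FPKM in WT and syd-5. WEE1, a kinase of the DNA replication checkpoint, was at 0.995 and 1.21 FPKM. AUR1, a kinase of the mitotic spindle, was at 4.37 and 5.32 FPKM, and KNOLLE, the syntaxin of the forming cell plate, at 14.6 and 15.9 FPKM. The q-values of these 5 genes ran from 0.346 to 0.624 in the authors' deposited table.

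**Figure D3:**
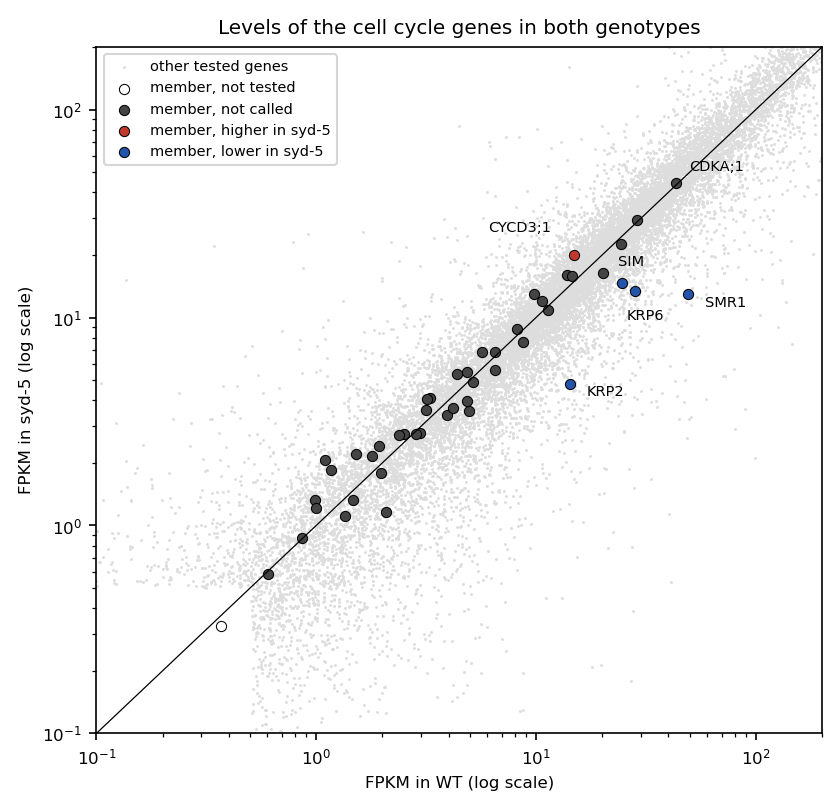
FPKM in WT (x axis) against FPKM in syd-5 (y axis), both on log scales, for the 47 cell cycle genes over the other tested genes with values above 0 in both genotypes. Most members lie close to the line of equal levels, and SMR1, KRP2, KRP6 and SIM lie below it.

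Level bears on which differences could be called. From a mean of 0.5 to under 5 FPKM, 0 of 25 tested members were called, against 31.1% of 5275 tested genes in that range. The smallest absolute log2 fold change called there was 0.40, so that smaller differences among these members were below what the comparison called. Larger ones were missed too, as with CYCD6;1 (log2 0.90) and KRP3 (log2 -0.84). The median absolute log2 fold change of the genes called in that range was 1.25. From 5 to under 50 FPKM, 5 of 21 members were called, against 29.4% of 10853 tested genes, and the smallest absolute log2 fold change called was 0.34. Missing the threshold therefore does not show that a member was equal in the genotypes.

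Further genes of the pathway came from 6 lists. Of 6 tested loci listed as further SMR inhibitors, 2 fell, none rose and 4 were not called (33.3% called, near the 32.1% of all tested genes). AT1G10690 fell 2.13-fold to 4.19 FPKM from 8.94 FPKM (q = 0.00177 from the authors' deposited table), and AT5G02420 fell 2.43-fold to 1.79 FPKM from 4.35 FPKM (q = 0.00641 from the authors' deposited table). AT1G08180 (18.7 and 13.9 FPKM), AT5G40460 (7.48 and 6.68 FPKM), SMR4 (3.41 and 3.21 FPKM) and SMR7 (2.60 and 2.56 FPKM) were not called, and SMR5, known for its induction by DNA damage, was listed at 0 in both genotypes. Together with SIM and SMR1, 4 of the 8 tested SIM/SMR genes read here fell, against 18.0% of all tested genes, and none rose. All 8 values were lower in syd-5, those of SMR4 (log2 -0.08) and SMR7 (log2 -0.02) only slightly. Of all tested genes 48.0% had a log2 fold change above 0, and 35.6% with both genotypes set to equal sums.

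Of 20 tested genes of DNA replication 3 rose, none fell and 17 were not called. The share that rose was near the 14.1% of all tested genes, and the called share was below their 32.1%. MCM5, a subunit of the replicative helicase, rose to 8.54 FPKM from 6.01 FPKM (log2 0.51), and the origin recognition genes ORC4 and ORC3 rose to 5.33 FPKM from 3.49 FPKM (log2 0.61) and to 2.48 FPKM from 1.66 FPKM (log2 0.58). The log2 fold change was above 0 for 17 of the 20, and for 14 with equal sums, where 48.0% of all tested genes were above 0 and 35.6% with equal sums. All 4 tested histone H3.1 loci rose (AT1G09200, AT5G65360, AT5G10390 and AT5G10400), where 14.1% of all tested genes rose. The rises were by log2 0.38 to 0.59, and AT1G09200 reached 148 FPKM from 98.4 FPKM. H3.1 genes encode the histone deposited during replication. They are near-identical copies, so that reads may be split among them and their values are uncertain.

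Of 19 tested genes of mitosis and cytokinesis, 3 rose, 2 fell and 14 were not called (26.3% called, against 32.1% of all tested genes). MYB3R1, a regulator of G2/M genes, fell to 7.61 FPKM from 11.2 FPKM (log2 -0.56, q = 0.000951 from the authors' deposited table), and MYB3R5, a repressor of these genes, fell to 2.59 FPKM from 3.96 FPKM (log2 -0.61). CKS1, a small CDK-binding protein gene, rose to 119 FPKM from 80.8 FPKM (log2 0.56), and CDC20.2, which encodes a mitotic activator of the anaphase-promoting complex, rose to 4.56 FPKM from 3.03 FPKM (log2 0.59). AUR2, of the same list, also rose (log2 0.59, q = 0.0366 from the authors' deposited table). The mitotic targets of MYB3R factors among the members, B-type cyclins and KNOLLE included, were not called. Whether any of these values relates to the lower MYB3R1 and MYB3R5 was not tested.

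Of 14 tested further cyclin, CDK, DP and DEL genes 3 rose, none fell and 11 were not called (21.4% called, against the same 32.1%). DEL3, an atypical E2F gene, rose to 2.79 FPKM from 1.42 FPKM (log2 0.97), and CYCA3;2 and CYCA1;2 rose by log2 0.49 and 0.57, to 6.04 and 4.06 FPKM. Of 14 tested genes of the anaphase-promoting complex and its inhibitors only OSD1 was called (7.14%, against 32.1% of all tested genes). OSD1, which encodes an inhibitor of the complex, rose to 4.22 FPKM from 2.54 FPKM (log2 0.73). Over the 6 lists, 14 genes rose, 4 fell and 59 were not called of 77 tested. The called share was 23.4%, against 32.1% of all tested genes, of which 14.1% rose and 18.0% fell.

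**Figure D4:**
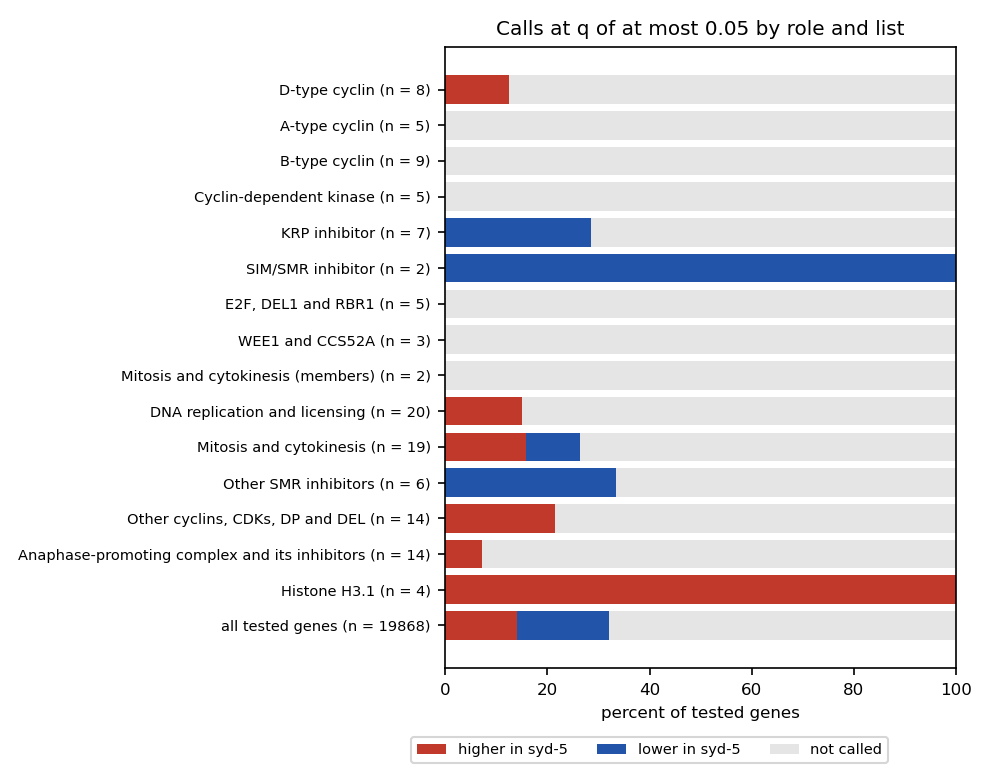
Percent of tested genes higher, lower or not called in syd-5 at a q of at most 0.05, for each role among the members, each further list and all tested genes (bottom bar, 14.1% higher and 18.0% lower). Among the cell cycle members, blue bars occur in the inhibitor roles alone.

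Marker genes were read for the tissues behind these values, though their levels do not measure the tissue mix. Green-tissue genes were abundant, at 13972 summed FPKM for 3 genes in WT and 19984 FPKM in syd-5, with LHCB1.3 rising (q = 0.00475 from the authors' deposited table). The 9 root markers summed to 24.97 FPKM (WT) and 25.7 FPKM (syd-5). Of 6 tested 1, SHR, was called (16.7%, against 32.1% of all tested genes). SHR accounts for the higher sum, and 4 of the 6 had a log2 fold change below 0 (median -0.17). The 6 shoot meristem and boundary markers summed to 17.06 and 11.6 FPKM. Of 4 tested, STM fell to 3.31 FPKM from 6.13 FPKM and 3 were not called (25.0% called, against the same 32.1%). CLV3 was listed at 0 in both genotypes and WUS in syd-5. All 3 tested floral organ markers were called, where 32.1% of all tested genes were called. AP1 fell to 0 from 1.28 FPKM, AP3 fell to 0.280 FPKM from 1.12 FPKM, and PI rose to 6.74 FPKM from 1.79 FPKM. The 4 listed summed to 4.67 FPKM (WT) and 7.06 FPKM (syd-5). PI alone accounts for the higher sum, as AG, not tested, was also lower in syd-5. The part of these shifts in the inhibitor values was not tested.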

How the data were processed

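Per the submitters' processing notes, Bowtie2, TopHat2 (version 2.0.4), bedtools and the build TAIR10 were used, with no role given for each. Which program made the comparison is not stated. The authors' deposited values, 1 per gene and genotype, were read as FPKM from their form, a unit the header does not name. The authors' p-value and q-value are used as deposited. A Benjamini-Hochberg adjustment of the p-values of the 19868 tested genes gave the same q-values to within 5.22e-07. How they treat libraries is not stated, and the labels do not say whether the libraries came from separately grown plants, so that their spread may be technical. As no values per library are given, no test of single genes was run here.

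Log2 ratios, medians, sums and counts were computed with Python 3.11.15, pandas 2.3.3 and NumPy 2.4.6, with the adjustment checked on simulated data. Deposited starts lie 1 base below RefSeq starts (8888 of 12433 genes with equal ends), so 1 was added. Locus identifiers were matched to RefSeq (TAIR10.1, 47 of 47 members found). The names printed came from the gene lists, and some differ from the RefSeq symbols, as KRP1 (ICK1 there) and KNOLLE (SYP111 there). AT1G10690, AT5G02420, AT1G08180 and AT5G40460 have no SMR name there and are given by locus identifier. An H3.1 locus that occurs only in a joined entry was left out.

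The members and lists were chosen with earlier results of these data known. The text names every member, and up to 4 called genes per further list by smallest q, then larger fold. SHR and SCR beside CYCD6;1, and other list members, were chosen after their values were seen. Alternatives covered the adjustment, threshold, minimum fold, low values, shared spans, pseudocount and scaling.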

Additional observations from a re-analysis of the deposited data

How the results depend on the processing

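The 4 members that fell were called under every alternative tried for calls. The count of members that rose went from 1 to 0 at a q of at most 0.01 and to 0 with a minimum of 1.5-fold, as CYCD3;1 was lost. Adjusting over all listed genes left 1 of the 3 further cyclin, CDK, DP and DEL genes that rose, with CYCA3;2 at 0.0506 and CYCA1;2 at 0.0722. In the other lists ORC3 (0.0590), AUR2 (0.0611) and AT5G10400 (0.0722) were lost the same way. Equal sums of FPKM, which were 865406 in WT and 948154 in syd-5, lowered every log2 fold change by 0.13 and changed the sign of no called member. The members' median became -0.10, and the medians by role became 0.0076 (D-type cyclins), -0.23 (A-type), -0.057 (B-type), 0.13 (CDKs), -0.44 (KRP) and 0.081 (E2F, DEL1 and RBR1). Log2 fold changes above 0 went from 25 of 46 members to 19, and from 48.0% of all tested genes to 35.6%. With a mean of at least 1 FPKM the B-type median was 0.19, and without shared spans the median of E2F, DEL1 and RBR1 was 0.0076. No paired analysis was possible because the table gives no values per library. For the same reason no library was left out in turn, and depth sets no stated limit.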

Other observations

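The nearest tested genes on either side of the 5 called members were called about as often as genes in general. Of these 10 neighbours 1 rose, 2 fell and 7 were not called, where 32.1% of all tested genes were called. Both neighbours of CYCD3;1, AT4G34150 (to 347 FPKM from 533 FPKM) and AT4G34180 (to 60.5 FPKM from 106 FPKM), fell, whereas CYCD3;1 rose. AT5G04480, next to SIM, rose to 15.8 FPKM from 10.5 FPKM, whereas SIM fell. The neighbours of KRP2, KRP6 and SMR1 were not called. Of the 5 called members 3 lie on chromosome 3, which holds 10 of the 47.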
